A study of Mus musculus with 6 samples.

Results

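Spp1, Gpnmb, Trem2, Fabp5, Lgals3, Cd9 and Syngr1 are transcripts carried together by a macrophage state of healing tissue. These 7 genes, of 32286 features in the tables, were followed here by their symbols through the cell types of injured mouse quadriceps. They were chosen by their levels in a macrophage cluster of these data, so their order of levels among cell types is a description with no test. Spp1 in myogenic cells was named in that choice as well, so its p-values there, also those of the difference from macrophages, are values of fits across all genes and not independent support.

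All mice carried Cdh5-CreERT2 and R26R-tdTomato, a reporter that tamoxifen switches on in cells using the endothelial Cdh5 promoter, and all had cardiotoxin injected into the quadriceps. In 3 mice, liposomes filled with clodronate (CLL), which phagocytes take up and which kill them, were given into a vein 1 day before and 2 days after injury. In 3 other mice, liposomes with PBS (SHAM) were given on the same days, and muscles were collected 5 days after injury in both groups. Per the design text the drug ablates circulating monocytes in part, and CLL muscles still held macrophages. Muscle was dissociated with enzymes and cleared over Ficoll before capture, and each library came from 1 mouse. The sources used here do not state age, sex, doses or when tamoxifen was given.

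Spp1 encodes osteopontin, a secreted protein that binds the hyaluronan receptor CD44 and integrins. Gpnmb is a glycoprotein of lysosomes and the cell surface, and Trem2 is a lipid-sensing receptor that signals through the adaptor Tyrobp. Fabp5 carries fatty acids within cells, Lgals3 encodes the sugar-binding protein galectin-3, Cd9 is a membrane tetraspanin and Syngr1 is a vesicle membrane protein. After muscle injury, monocytes that enter from blood turn into macrophages that clear debris, and this set of genes is known from macrophages loaded with lipid in several tissues.

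Of 60282 deposited barcodes, 46685 were kept, from 1848 to 19346 a library, and the median kept cell held 879 to 13820 unique molecular identifiers (UMIs, counts of distinct captured transcripts). Cells were grouped into 29 clusters, of which 20 were named by their markers and merged into 11 classes. SHAM replicate 3 stood apart: 81.0% of its kept cells were in unnamed clusters, against 12.3% to 18.6% in the other libraries, and its median was the 879 UMIs. Libraries shared between 0.096% and 1.06% of the barcodes of the smaller library of a pair. The macrophage/monocyte-like class held 638, 506 and 1024 cells in CLL replicates 1 to 3 and 5814, 434 and 427 cells in SHAM replicates 1 to 3. All 18 of its markers were detected, and their summed level was 43840 to 49280 CPM (UMIs of the summed cells scaled to a fixed total) in CLL and 67225 to 76270 CPM in SHAM, without overlap. Much of that gap was the marker Apoe, which alone had 15359 to 18047 CPM in CLL and 35684 to 40291 CPM in SHAM. Fibroblast markers, of which 14 of 14 were detected in this class, summed to 1859 to 2714 CPM in CLL and 1638 to 5726 CPM in SHAM; their part in the results below was not tested.

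Promoters of Spp1 and Gpnmb are shown because the results below set these genes apart: Spp1 UMIs lay in several cell classes, and Gpnmb UMIs mostly in macrophage/monocyte-like cells. Each runs from 250 bases before to 50 bases after the transcript start (RefSeq, build GRCm38.p6), 5′ to 3′ on the gene's strand. Capitals mark a match to TGACTCA, the letters bound by AP-1 factors.
Spp1, chr5:104434861-104435160, plus strand: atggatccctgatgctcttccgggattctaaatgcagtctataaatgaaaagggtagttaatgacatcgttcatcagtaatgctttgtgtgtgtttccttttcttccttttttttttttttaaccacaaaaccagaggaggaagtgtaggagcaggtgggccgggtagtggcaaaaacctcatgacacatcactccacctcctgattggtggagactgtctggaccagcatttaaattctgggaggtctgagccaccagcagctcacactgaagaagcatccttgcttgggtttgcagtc
Gpnmb, chr6:49036268-49036567, plus strand: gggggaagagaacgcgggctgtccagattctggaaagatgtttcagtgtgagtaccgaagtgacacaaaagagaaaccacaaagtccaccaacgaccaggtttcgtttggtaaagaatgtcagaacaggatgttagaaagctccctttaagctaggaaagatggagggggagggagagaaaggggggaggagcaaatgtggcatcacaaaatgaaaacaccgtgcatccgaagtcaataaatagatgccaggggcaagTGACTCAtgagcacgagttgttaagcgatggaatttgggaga
Motifs searched on both strands were TGACTCA and the letters bound by the MiT/TFE factors of lysosomal genes, TCACGTG and TCATGTG. The Gpnmb window held the 1 match shown, whose first base lies at position 9 of the transcript and which overlaps neither other motif. Of 32851 promoters of the same length, 5.2% held TGACTCA, 3.77% held TCACGTG and 3.77% held TCATGTG. Windows of Trem2, Lgals3, Cd9 and Syngr1, a second window of Spp1 and the Spp1 window shown held none of the 3 motifs. No window was taken for Fabp5.

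Where the UMIs of each gene lay differed widely among the 7. Macrophage/monocyte-like cells held 87.2%, 68.2% and 87.5% of all Gpnmb UMIs of kept cells in the CLL libraries and 77.1%, 91.3% and 84.1% in the SHAM libraries. Trem2 was placed much the same way, with 70.3% to 88.5% in CLL and 71.3% to 93.2% in SHAM, and so was Syngr1, with 62.0% to 87.4% in CLL and 71.5% to 89.3% in SHAM. For Spp1 the macrophage share was 40.8%, 24.6% and 37.9% in CLL and 62.4%, 53.8% and 68.5% in SHAM, so every CLL library lay below every SHAM library. Myogenic-like cells held 18.03%, 8.46% and 20.9% of Spp1 UMIs in CLL and 5.88%, 6.92% and 3.75% in SHAM. Fibroblast/tenocyte-like cells held 25.9%, 44.0% and 26.7% of them in CLL, against 3.67%, 30.7% and 2.84% in SHAM. These shares move with the number of cells of each class as well as with level per cell: fibroblast/tenocyte-like cells were 47.9% to 63.2% of kept cells in CLL and 5.03% to 21.1% in SHAM.

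**Figure D1:**
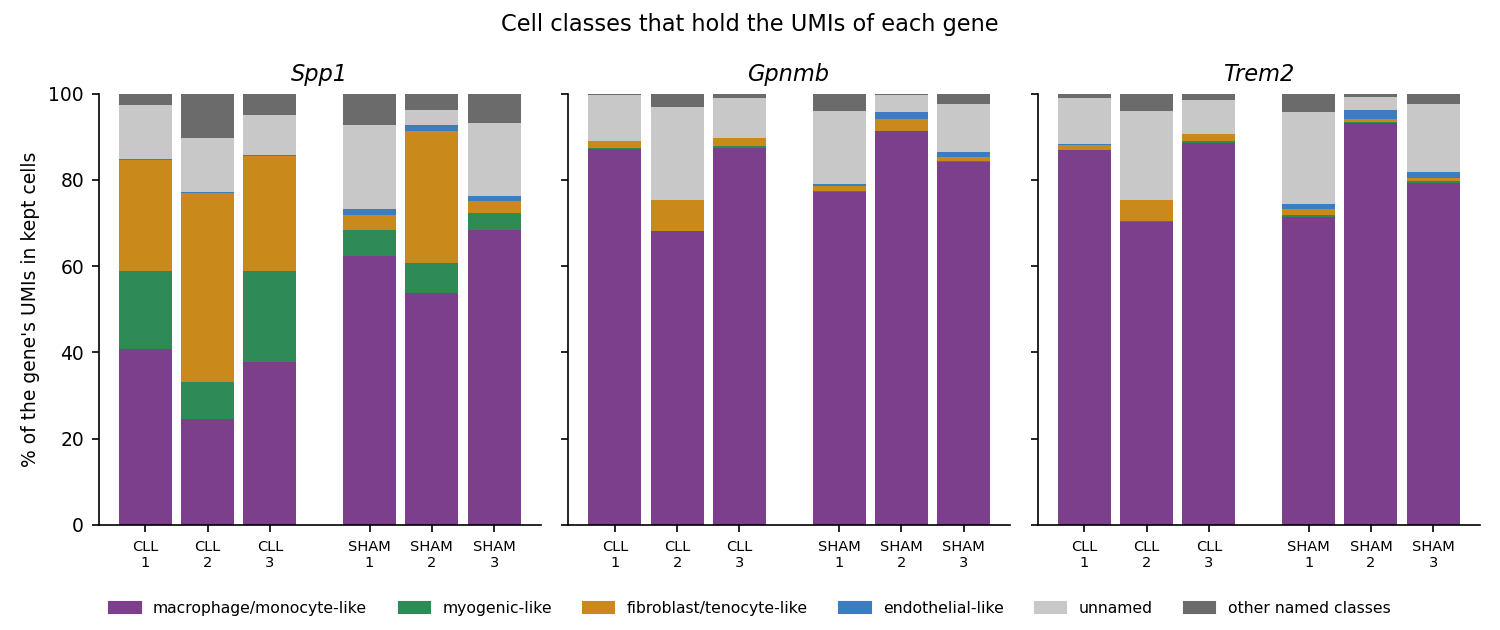
Stacked bars give the percentage of each gene's UMIs of kept cells that lay in each cell class, 1 bar per library, for Spp1, Gpnmb and Trem2. Macrophage/monocyte-like cells hold 68.2% or more of Gpnmb and 70.3% or more of Trem2 in every library, and 24.6% to 68.5% of Spp1.

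Across cell types, Gpnmb, Trem2, Syngr1, Lgals3 and Fabp5 had their highest mean CPM in macrophage/monocyte-like cells in both groups. Spp1 was at 1443 to 1834 CPM there in CLL and 746 to 1672 CPM in SHAM. Glial-like cells, the class with Schwann cell markers, reached the same order of Spp1 with 1227, 2128 and 4104 CPM in CLL and 1312, 542 and 1626 CPM in SHAM, and myogenic-like cells came next at 1039 to 1355 CPM in CLL and 314 to 500 CPM in SHAM. Adipocyte-like cells, of which SHAM libraries held 4, 4 and 2, are left out of that order, with Spp1 at 158, 179.9 and 66.0 CPM in CLL and 0, 0 and 3007 CPM in SHAM. In CLL the glial-like range overlapped the ranges of both other classes, and in SHAM myogenic-like cells lay below both. Cd9 was highest in glial-like cells, at 2124 to 2764 CPM in CLL and 1903 to 2472 CPM in SHAM, against 268 to 415 CPM in CLL and 235 to 359 CPM in SHAM in macrophage/monocyte-like cells. Fabp5, which capillary endothelium also uses, had 322, 1830 and 1149 CPM in CLL and 1485, 1493 and 1313 CPM in SHAM in endothelial-like cells. The glial-like class had 20, 267 and 19 cells across CLL libraries and 495, 50 and 39 across SHAM libraries, so it was not tested.

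The 3 likest genes by Pearson r of log2(CPM + 1) over 55 class-by-library sums, among 5832 genes with a mean of at least 20 CPM, were searched for each gene. For Trem2 they were the complement genes C1qc (r = 0.96), C1qa (0.95) and C1qb (0.95), and the same genes were likest to Syngr1 at r = 0.93, 0.93 and 0.92 for C1qa, C1qc and C1qb. Gpnmb was likest to the lysosomal protease gene Ctsb (r = 0.86), C1qc (0.85) and C1qb (0.84). Lgals3 was likest to Ucp2, Npc2 and Tank (r = 0.86, 0.86 and 0.85). Spp1 had weaker matches in Sirt2, Mfsd11 and Soat1 (r = 0.75, 0.72 and 0.68), Cd9 in Secisbp2l, Qk and Plekhb1 (0.80, 0.79 and 0.78) and Fabp5 in Arhgdia, Rasa4 and Prcp (0.73, 0.69 and 0.68). Among the 7, Trem2 and Syngr1 were closest (r = 0.90), Trem2 and Gpnmb had r = 0.83, Spp1 and Gpnmb had r = 0.48, and Cd9 and Fabp5 had r = -0.11. The sums of a library share its preparation and depth, so these values carry no p.

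In macrophage/monocyte-like cells the level of the 7 genes did not differ between CLL and SHAM past the test. Trem2 had 1104, 906 and 1445 CPM in CLL and 1226, 1101 and 1227 CPM in SHAM. Gpnmb had 1182, 659 and 1582 CPM in CLL and 1179, 648 and 1505 CPM in SHAM. Low and high libraries occurred in both groups for both genes, and the groups overlapped. Their log2 folds (CLL over SHAM, ± SE, edgeR quasi-likelihood test on UMIs summed per library) were -0.02 ± 0.20 for Trem2 (adjusted p = 0.976) and 0.09 ± 0.34 for Gpnmb (adjusted p = 0.923). Spp1 had 1706, 1443 and 1834 CPM in CLL and 1672, 746 and 1579 CPM in SHAM, a log2 fold of 0.36 ± 0.25 (adjusted p = 0.464). SHAM replicate 2 was the low library of Spp1 and of Gpnmb.

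The 4 other genes overlapped between groups too. Lgals3 had 4064, 2885 and 4593 CPM in CLL and 2956, 2647 and 2980 CPM in SHAM, a log2 fold of 0.45 ± 0.22 (adjusted p = 0.278), the smallest p of the set. Fabp5 had 3338, 2165 and 4139 CPM in CLL and 2723, 1867 and 2709 CPM in SHAM, a log2 fold of 0.44 ± 0.26 (adjusted p = 0.383). The log2 folds of Cd9 and Syngr1 were 0.34 ± 0.20 and 0.22 ± 0.24, with adjusted p = 0.405 and 0.662. In all, 0 of 7 genes passed and 0 of 7 had an unadjusted p under 0.05, where 424 of 11331 genes tested passed in this class, or 3.74% (1.42% higher and 2.32% lower), and 19.8% had an unadjusted p under 0.05. The libraries of the groups overlapped for 7 of 7 genes, where 21.6% of all genes did not overlap. DESeq2 called 0 of 7 as well. Their median log2 fold was 0.34, against -0.0011 over all genes tested. A p that misses the threshold does not show equal levels. The 6 marker genes C1qa, C1qb, C1qc, Lyz2, Tyrobp and Fcer1g, which enter ratios further on, summed to 24250 to 29110 CPM in CLL and 28110 to 33310 CPM in SHAM in this class.

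The shares of cells with a UMI overlapped between the groups for the 7 genes. With every cell thinned to 1000 UMIs, Spp1 had a UMI in 41.6%, 33.2% and 45.1% of the CLL cells of the class and 45.3%, 29.3% and 46.2% of the SHAM cells. Trem2 had a UMI in 53.9%, 40.1% and 62.8% of the CLL cells and 61.0%, 50% and 56.4% of the SHAM cells. Gpnmb had a UMI in 27.7%, 16.6% and 34.0% of the CLL cells and 35.3%, 20.05% and 40.3% of the SHAM cells. Its mean difference, CLL minus SHAM, was -5.80 percentage points, and -12.2 with cells thinned to 2000 UMIs (two-sided exact permutation p = 0.5 and 0.3); without 1 library it ranged from -11.7 to -1.05. Of the 7 genes, the two-sided exact permutation p at 1000 UMIs lay between 0.4 and 0.9, and 0.1 is the smallest that 3 against 3 libraries allow. Thinning left out 38 CLL and 297 SHAM cells of this class, whose median UMI counts after that were 7448 in CLL and 3049 in SHAM.

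Genes that work beside the 7 in the same cells, 32 partners of TREM2 and lipid-handling genes, were all tested in macrophage/monocyte-like cells: 0 rose and 4 fell. Of all genes tested in this class, 1.42% rose and 2.32% fell. Genes of this and the other lists were not run through the alternatives. All calls in the class fell from 424 to as few as 39 when 1 library was left out. Apoe, the lipid-carrier ligand of TREM2, had 16438, 15359 and 18047 CPM in CLL and 35684, 40291 and 37672 CPM in SHAM, a log2 fold of -1.18 ± 0.22 (edgeR adjusted p = 0.0189). The groups were far apart, unlike those of Trem2 itself. Abcg1, a cholesterol exporter, fell by 0.98 ± 0.12 on the log2 scale (adjusted p = 0.00369), and the receptors for dying cells Axl and Mertk fell by 1.20 ± 0.21 and 0.63 ± 0.14 (adjusted p = 0.0148 and 0.0339). The median log2 fold of the 32 was 0.01. The macrophage elastase gene Mmp12 and the lipid-droplet gene Plin2 had log2 folds of 1.22 and -0.50 and did not pass.

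Of 9 receptor genes for osteopontin, 7 were tested and 1 rose: the integrin gene Itga5, with 62.3, 53.3 and 57.6 CPM in CLL and 45.4, 35.4 and 36.2 CPM in SHAM, a log2 fold of 0.59 ± 0.14 (edgeR adjusted p = 0.0424). As above, 1.42% of all genes tested in this class rose and 2.32% fell. Itgav, Itga9, Itgb1, Itga4 and Cd44 had log2 folds of 0.57, 0.38, 0.38, -0.34 and 0.27 and did not pass. None of 17 transcription factor genes of lysosomes and lipid sensing passed (median log2 fold -0.10); those with the smallest p were Cebpb, Ppard, Nr1h2, Tfec, Maf and Nr1h3, at log2 folds of -0.58, -0.32, -0.30, 0.30, -0.32 and 0.37. Of 23 family relatives of the 7 genes, 16 were tested and 1 fell, the low-level receptor gene Treml2 (1.95 ± 0.29 CPM in CLL and 5.86 ± 0.28 CPM in SHAM, SD, n = 3 each, adjusted p = 0.0138). Cd81, Cd53, Lgals1, Lgals9 and Cd37 had log2 folds of 0.56, -0.44, 0.52, -0.36 and -0.22 and did not pass.

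The class was made of 3 clusters. Cluster 3 was led by Gpnmb, Mmp12 and Atp6v0d2, cluster 7 by F13a1, Cbr2, Mrc1 and Ccl8, genes of resident-type macrophages, and cluster 11 by Il1b, H2-Aa, Cd74 and Cx3cr1, genes of antigen presentation and inflammation. Cluster 3 made up 26.6%, 24.9% and 38.9% of the class in CLL and 29.4%, 17.5% and 28.6% in SHAM. All 7 genes were among those used to form the clusters, so their contrast between clusters is a description. Spp1 had 3354, 3521 and 2998 CPM in CLL and 3322, 1820 and 3054 CPM in SHAM in cluster 3. It ran from 392 to 936 CPM in CLL and from 385 to 944 CPM in SHAM in the other clusters, so Spp1 was present in all 3. Gpnmb was more confined, at 2002 to 3003 CPM in CLL and 2249 to 2995 CPM in SHAM in cluster 3 and 42.0 to 138 CPM in CLL and 119 to 218 CPM in SHAM in cluster 7. Trem2 varied least, at 1648 to 1948 CPM in CLL and 1722 to 1925 CPM in SHAM in cluster 3, and 568 to 896 CPM in CLL and 802 to 921 CPM in SHAM in cluster 7.

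**Figure D2:**
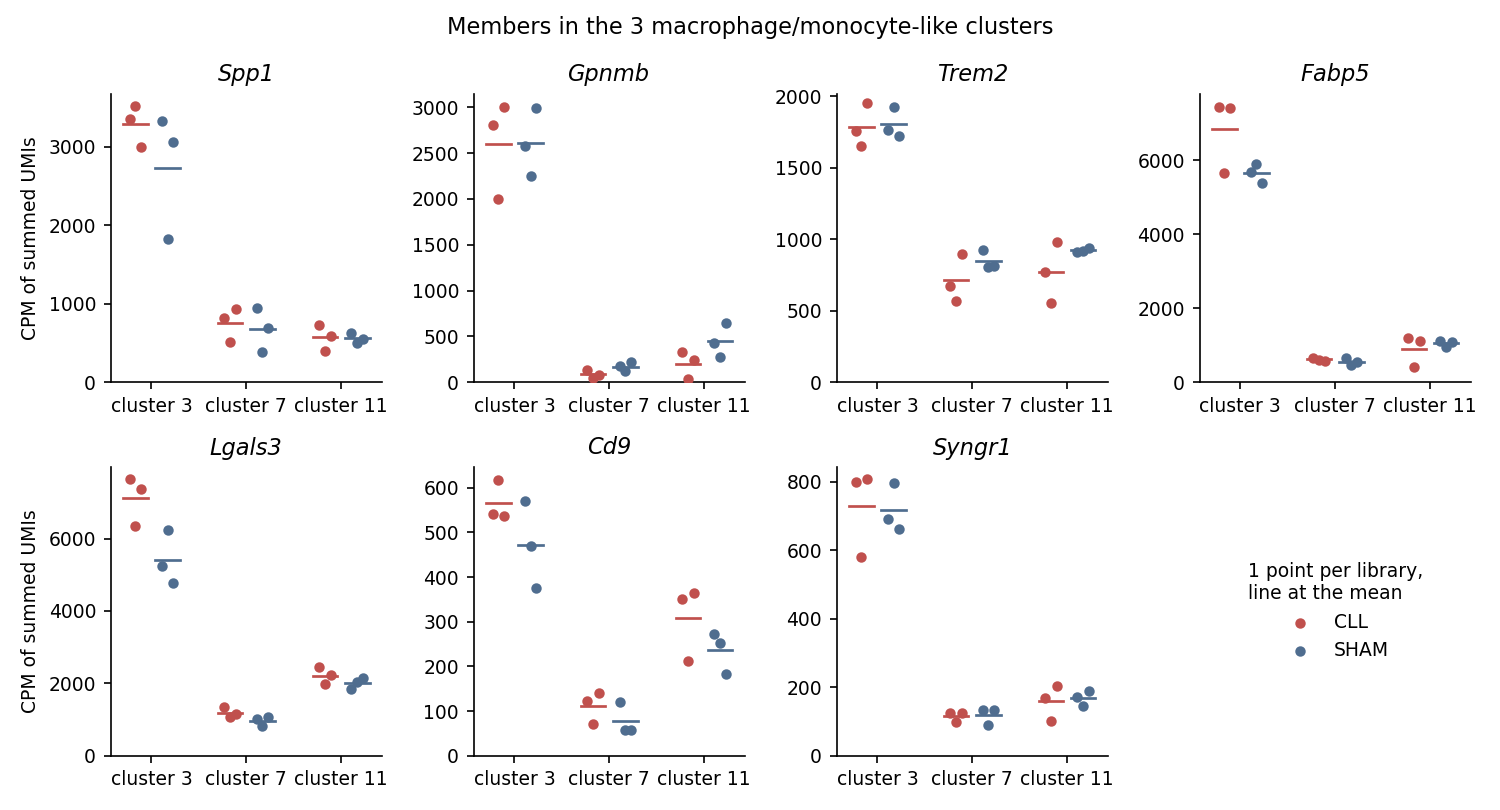
Points give the CPM of summed UMIs of each gene in each library in the 3 macrophage/monocyte-like clusters, with a line at the mean of the 3 libraries of a group. All 7 genes are highest in cluster 3 in both groups, and Lgals3 in cluster 3 is the panel where CLL libraries (6344 to 7635 CPM) lie above SHAM libraries (4758 to 6233 CPM) without overlap.

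Within cluster 3, 0 of 7 genes passed (2.14% of 9456 genes tested passed). Lgals3 was the 1 gene whose libraries did not overlap there, with 7635, 6344 and 7360 CPM in CLL and 5234, 6233 and 4758 CPM in SHAM, yet its adjusted p was 0.282; 19.6% of all genes tested did not overlap. Within cluster 7 (6.39% of genes called) and cluster 11 (3.21% called), 0 of 7 passed as well. Gpnmb had 138, 42.0 and 81.7 CPM in CLL and 172, 119 and 218 CPM in SHAM in cluster 7, a log2 fold of -0.95 ± 0.32 (edgeR adjusted p = 0.1002). In cluster 11 it had 328, 36.1 and 242 CPM in CLL and 424, 276 and 651 CPM in SHAM, a log2 fold of -1.01 (adjusted p = 0.327), with CLL replicate 2 the low library.

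The CLL effect on Gpnmb differed between cluster 3, at 0.03 ± 0.19, and cluster 7, at -0.95 ± 0.32: the interaction, with the library as a block, was 1.04 ± 0.20 (edgeR adjusted p = 0.0208, 0.263% of genes passing). It was not kept when cells were clustered with the 7 genes withheld: in the clusters that matched best, the difference was 0.58 ± 0.35 (adjusted p = 0.788). Leaving out CLL replicate 2, CLL replicate 3, SHAM replicate 1 or SHAM replicate 3 also ended the call, with values from 0.82 to 0.96. The other 6 genes gave no such difference between clusters 3 and 7.

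When the class alone was clustered with the 7 genes withheld, subsets differed in share between libraries of a group and, for subset 0, between the groups. Subset 0, led by Ifnb1, Cxcl10 and Zc3h12c, held 75.9%, 51.2% and 72.6% of the class in CLL and 1.43%, 17.5% and 13.3% in SHAM, without overlap. Subset 1, led by Ednrb, Cd163, Ccl8 and Cbr2, held 9.72%, 30.8% and 7.81% in CLL and 13.5%, 14.1% and 14.8% in SHAM. Subsets 0 and 1 were those with at least 20 cells in every library, and 0 of 7 genes passed in either (0.311% and 1.63% of genes called). Subset 4, led by Atp6v0d2, Mmp12 and Mfge8, had 1337 of its 1686 cells from cluster 3. It held 8 and 3 cells in SHAM replicates 2 and 3 and was not tested. All 7 log2 folds were negative in subsets 0 and 1, from -0.91 to -0.29 in subset 0 and from -1.13 to -0.38 in subset 1, the opposite sign of 6 of the 7 folds over the whole class. In the cluster of all kept cells with the genes withheld that matched cluster 3 best, sharing 82.3% of its cells, 0 of 7 passed and all folds were negative, from -0.71 to -0.07 (1.47% of genes called). In the match of cluster 7 the folds were also negative, from -1.41 to -0.18, but in the match of cluster 11 Cd9, Lgals3 and Fabp5 had positive folds of 0.66, 0.58 and 0.27 (edgeR adjusted p = 0.102, 0.18 and 0.595). So the sign within macrophages depended on how the subsets were drawn, and none of these folds passed.

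In myogenic-like cells, the cluster led by Cdh15, Myf5 and Pax7, Spp1 rose in CLL. It had 1067, 1039 and 1355 CPM in CLL (267, 275 and 406 cells) and 500, 314 and 414 CPM in SHAM (1554, 104 and 94 cells). Every CLL library was above the highest SHAM library. The log2 fold was 1.61 ± 0.17, or 3.06-fold (edgeR adjusted p = 9.69e-05), and it was 1.64 ± 0.21 without SHAM replicate 3 (adjusted p = 0.000566). It was higher in 3 of 3 CLL libraries. With cells thinned to 1000 UMIs, Spp1 was found in 39.6%, 45.5% and 48.1% of myogenic-like cells in CLL and 19.4%, 10.6% and 11.2% in SHAM (two-sided exact permutation p = 0.1, the smallest possible; adjusted over the 7 genes p = 0.35). Without thinning it was 78.3%, 63.6% and 81.0% of the CLL cells and 37.5%, 36.5% and 43.6% of the SHAM cells. Endothelial-like cells had thinned shares of 5.56%, 4.196% and 10.6% in CLL and 6.35%, 3.32% and 5.62% in SHAM. Before thinning, the median cell used held 10298 UMIs in CLL and 3413 in SHAM among myogenic-like cells, and 2248 in CLL and 2917 in SHAM among endothelial-like cells.

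Lgals3 and Fabp5 rose there as well. Lgals3 had 331, 245 and 364 CPM in CLL and 155, 108 and 175 CPM in SHAM, a log2 fold of 1.23 ± 0.18 (edgeR adjusted p = 0.000896). Fabp5 had 295, 393 and 326 CPM in CLL and 247, 137 and 132 CPM in SHAM, a log2 fold of 1.08 ± 0.20 (adjusted p = 0.0034). Neither gene overlapped between groups, where 33.1% of all genes tested did not. Without SHAM replicate 3 both were still called, at 1.38 (adjusted p = 0.00128) for Lgals3 and 0.94 (adjusted p = 0.0155) for Fabp5. Cd9, at 329 to 386 CPM in CLL and 230 to 330 CPM in SHAM, did not pass (0.36 ± 0.16, adjusted p = 0.14). Gpnmb and Trem2 were near the floor, at 0.676 to 6.43 CPM and 3.92 to 10.8 CPM in CLL, against 2.70 to 12.6 CPM and 3.78 to 34.0 CPM in SHAM, and did not pass (adjusted p = 0.18 and 0.0774). Syngr1, at 0.435 to 2.54 CPM in CLL and 1.62 to 8.51 CPM in SHAM, was too low to be tested. Thus 3 of 6 tested genes rose and 0 fell, where 14.9% of 10482 genes tested passed, 6.77% higher and 8.09% lower in CLL.

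**Figure D3:**
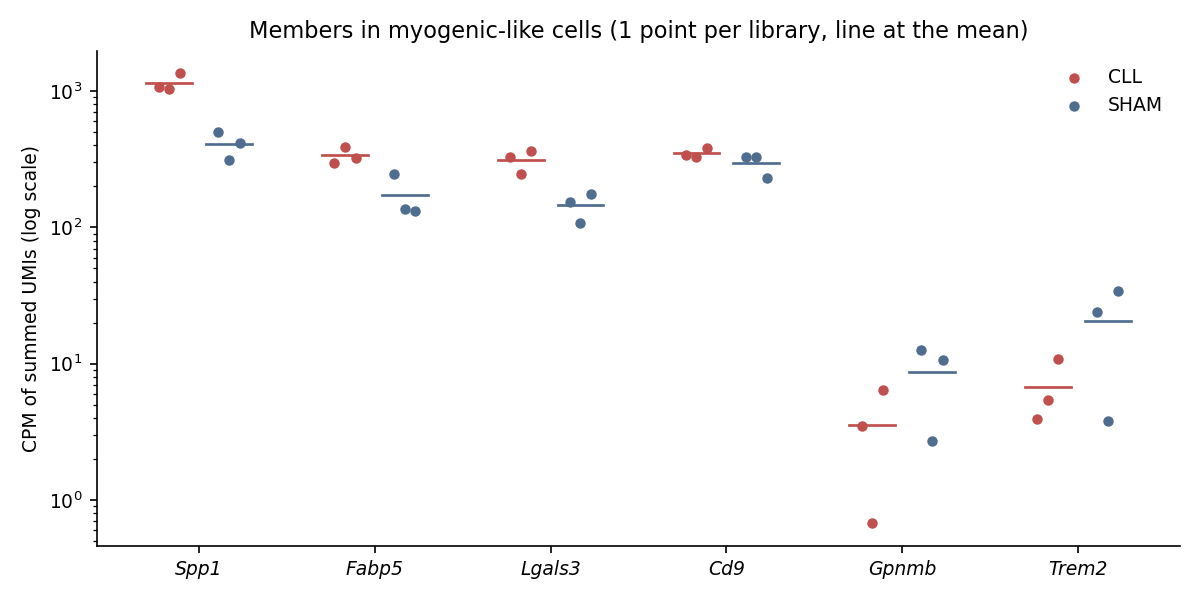
Points give the CPM of summed UMIs of 6 genes in myogenic-like cells of each library on a log axis, with a line at the mean of each group. Spp1, Fabp5 and Lgals3 are higher in all 3 CLL libraries, while Gpnmb and Trem2 lie at 34.0 CPM or below in every library.

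Genes of the muscle lineage differed in these cells as well. The satellite cell genes Pax7 and Myf5 fell to 102 ± 5.36 and 107 ± 21.0 CPM in CLL, against 205 ± 14.2 and 188 ± 28.1 CPM in SHAM (SD, n = 3 each, edgeR adjusted p = 0.00111 and 0.00996). Sdc4 and Megf10, also on the list of myogenic markers, fell too (log2 folds -0.75 ± 0.15 and -0.45 ± 0.14, edgeR adjusted p = 0.00594 and 0.0476). Among other lineage genes, those that rose were the differentiation factor Myog (log2 fold 0.86 ± 0.23, adjusted p = 0.028), the acetylcholine receptor gene Chrna1 (1.29 ± 0.14, adjusted p = 0.000119), the intermediate filament gene Des (0.87 ± 0.18, adjusted p = 0.00594) and the fusion gene Mymx (1.05 ± 0.30, adjusted p = 0.0324). The fusion gene Mymk, the cadherin gene Cdh15, the integrin gene Itga7 and the adhesion gene Vcam1 had log2 folds of 0.75, -0.07, -0.01 and -0.41 and did not pass. Myod1 and the cycling genes Mki67 and Top2a had log2 folds of 0.41, 0.50 and 0.47 and did not pass. These lineage genes were chosen after their values were seen, and their part in the Spp1 difference was not tested. Of the osteopontin receptor genes, 6 were tested in these cells and 0 rose. Itgb5 fell (-0.60 ± 0.17, edgeR adjusted p = 0.0298), while Cd44 had 240 ± 23.04 CPM in CLL and 184 ± 68.8 CPM in SHAM (SD, n = 3 each, adjusted p = 0.097). Itga8 (-1.58 ± 0.39, adjusted p = 0.0183) was near the floor, at 1.35 to 2.61 CPM in CLL and 4.78 to 7.55 CPM in SHAM. It passed the filter on low counts through the SHAM libraries, where it was high, so its values are a description. Among all genes tested in these cells, 6.77% rose and 8.09% fell.

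Macrophage transcripts were also found in myogenic-like cells. The 18 macrophage/monocyte markers summed to 226 to 539 CPM in myogenic-like cells in CLL and 880 to 2426 CPM in SHAM, of which Apoe alone had 127 to 229 CPM in CLL and 764 to 1397 CPM in SHAM. The 6 markers used for ratios summed to 85.1, 148 and 281 CPM in CLL and 540.2, 97.1 and 949 CPM in SHAM, which overlapped, with SHAM replicate 2 under CLL replicates 2 and 3. For C1qa, C1qb, C1qc, Lyz2, Tyrobp and Fcer1g together, the UMIs of Spp1 per marker UMI were 194, 118 and 76.7 times those in macrophage/monocyte-like cells of the same library in CLL and 15.6, 139 and 9.19 times in SHAM. A value of 1 means as many UMIs of the gene per marker UMI as in macrophage/monocyte-like cells. For Trem2 the same ratio was 0.777 to 1.10 in CLL and 0.973 to 1.13 in SHAM, and for Gpnmb 0.168 to 0.913 in CLL and 0.248 to 1.37 in SHAM. The Spp1 ratio was above 1 in every library, and those of Trem2 and Gpnmb lay on both sides of 1; the part of macrophage RNA in these levels was not tested. Without cells holding 3 or more macrophage markers, Spp1 in myogenic-like cells was 1049, 1011 and 1476 CPM in CLL (203, 239 and 308 cells) and 420, 437 and 153 CPM in SHAM (821, 65 and 17 cells).

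**Figure D4:**
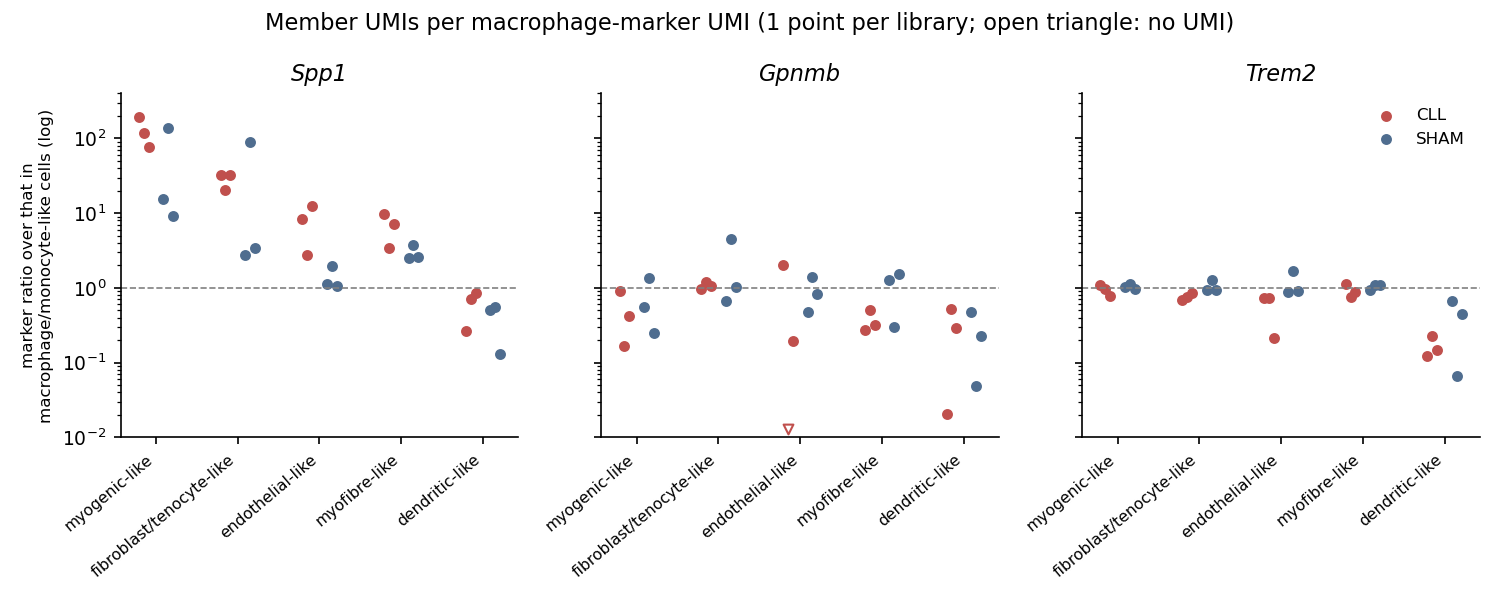
Each point is the ratio of Spp1, Gpnmb or Trem2 UMIs to macrophage-marker UMIs in 1 class of 1 library, divided by that ratio in macrophage/monocyte-like cells, on a log axis with a dashed line at 1. Spp1 in myogenic-like cells lies between 9.19 and 194, whereas Trem2 lies between 0.212 and 1.67 in myogenic-like, fibroblast/tenocyte-like, endothelial-like and myofibre-like cells. The open triangle is a library with no Gpnmb UMI.

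The CLL effect itself differed between myogenic-like and macrophage/monocyte-like cells for Spp1 and Lgals3. The difference of log2 folds was 1.27 ± 0.18 for Spp1 (edgeR interaction with the library as a block, adjusted p = 0.00506) and 0.85 ± 0.16 for Lgals3 (adjusted p = 0.0186), both higher in myogenic-like cells. Of all genes, 2.7% passed this test. Leaving out any 1 library kept the Spp1 call (1.13 to 1.45). The Lgals3 call was lost without CLL replicate 1, 2 or 3 (0.80 to 0.93). Syngr1, too low to be tested in myogenic-like cells, entered this fit through its macrophage sums, so its value of -2.15 is not read as a difference. Its UMIs in myogenic-like cells, 2, 1 and 15 in CLL and 36, 3 and 16 in SHAM, were at 0.348 to 0.537 of the macrophage-marker ratio in CLL and 0.812 to 2.00 in SHAM.

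Clusters 8 and 23 stayed unnamed because they carried both myogenic and macrophage markers. Cluster 8, led by histone genes and Top2a of dividing cells, had Spp1 at 1546, 999 and 1376 CPM in CLL and 1130, 354 and 1625 CPM in SHAM, with Gpnmb at 149 to 461 CPM in CLL and 169 to 829 CPM in SHAM. It held 9 and 17 cells in SHAM replicates 2 and 3 and was not tested. Cluster 23, led by Chodl, Pax7 and Asb5, held 5, 3 and 16 cells in CLL and 359, 0 and 19 cells in SHAM. With cluster 8 added to the myogenic-like cells, the log2 fold of Spp1 was 1.17 ± 0.26 (edgeR adjusted p = 0.025), and with cluster 23 added it was 1.48 ± 0.19 (adjusted p = 0.00234). The other calls ended: with cluster 8 added, Lgals3 was at 0.62 (adjusted p = 0.429) and Fabp5 at 0.49 (adjusted p = 0.416), and with cluster 23 added they were at 0.43 (adjusted p = 0.449) and 0.69 (adjusted p = 0.102).

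Myofibre-like cells, from clusters led by Tnnt2, Tnnc1 and Myog and by Myl1, Mylpf and Acta1, had Spp1 at 252, 253 and 415 CPM in CLL and 372, 111 and 580 CPM in SHAM, which overlapped. The cluster with Myog, 704 of the 1090 cells, also carried myogenic markers (mean log2 fold 2.55, against 3.37 for myofibre markers). It was not among the clusters added to myogenic-like cells. In the myofibre-like class 0 of 7 genes and 0 of 8010 genes passed by edgeR (0% called, while 724 genes, or 9.04%, had an unadjusted p under 0.05). DESeq2 called 1 of the 7, Trem2 (log2 fold -1.67 ± 0.50, adjusted p = 0.0487). The share of all genes that DESeq2 called there was not counted, so this call is a description.

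In fibroblast/tenocyte-like cells 1 of the 7 genes rose and 4 fell, where 24.2% of 14716 genes tested passed, 11.2% higher and 12.9% lower. The groups did not overlap for 6 of the 7, nor for 42.4% of all genes. Cd9 had 142, 142 and 146 CPM in CLL and 352, 362 and 353 CPM in SHAM, a log2 fold of -1.20 ± 0.11 (edgeR adjusted p = 0.000245). The spread within each group was a small part of the gap between them. Fabp5 had 641, 943 and 648 CPM in CLL and 238, 51.0 and 175 CPM in SHAM, a log2 fold of 2.40 ± 0.42, or 5.27-fold (adjusted p = 0.00415). Without SHAM replicate 3 the values were -1.21 for Cd9 (adjusted p = 0.000791) and 2.50 for Fabp5 (adjusted p = 0.0114). Both genes were well above the macrophage-marker ratio, at 74.8 to 126 times for Cd9 in CLL and 38.4 to 287 times in SHAM, and 38.3 to 62.3 times for Fabp5 in CLL and 3.42 to 5.59 times in SHAM.

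Gpnmb, Trem2 and Syngr1 fell in these cells at levels of a few CPM. Gpnmb had 3.53, 5.56 and 6.75 CPM in CLL and 20.3, 14.3 and 20.8 CPM in SHAM (log2 fold -1.69 ± 0.22, edgeR adjusted p = 0.00131). Trem2 had 2.36, 4.92 and 5.07 CPM in CLL and 29.4, 6.86 and 15.3 CPM in SHAM (-1.97 ± 0.43, adjusted p = 0.0102), and Syngr1 1.10, 2.41 and 1.61 CPM in CLL and 9.55, 6.11 and 6.06 CPM in SHAM (-1.99 ± 0.29, adjusted p = 0.00204). The macrophage markers C1qa, C1qb, C1qc, Lyz2, Tyrobp and Fcer1g summed to 81.3, 172 and 119 CPM in CLL and 717, 156 and 451 CPM in SHAM in the same cells, with SHAM replicate 2 under CLL replicate 2. Trem2 per marker UMI was 0.693 to 0.858 of the macrophage ratio in CLL and 0.924 to 1.27 in SHAM. For Gpnmb it was 0.970, 1.19 and 1.04 in CLL and 0.676, 4.53 and 1.02 in SHAM, and for Syngr1 0.924, 1.35 and 0.804 in CLL and 1.04, 4.69 and 1.22 in SHAM. SHAM replicate 2 was the high library of both, and the part of macrophage RNA was not tested.

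Lgals3 just missed, at 60.3 to 80.9 CPM in CLL and 94.0 to 102 CPM in SHAM (log2 fold -0.40 ± 0.13, edgeR adjusted p = 0.0513). Spp1 had 173, 207 and 242 CPM in CLL and 118, 322 and 72.9 CPM in SHAM and did not pass (0.36 ± 0.44, adjusted p = 0.589). SHAM replicate 2 decided that value: without it the log2 fold was 1.27 (adjusted p = 0.00367), and without SHAM replicate 3 it was -0.0024 (adjusted p = 0.997).

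The makeup of the fibroblast/tenocyte-like class differed between the groups, so its clusters were tested alone. In cluster 4, led by Ecrg4, Sfrp1 and Cthrc1, with 1213, 1806 and 1946 cells in CLL and 652, 39 and 51 in SHAM, the same 5 genes passed, 1 higher and 4 lower (3.89% of genes called, 2.03% higher and 1.86% lower). Cd9 had 120, 126 and 127 CPM in CLL and 281, 366 and 311 CPM in SHAM there (-1.31 ± 0.15, edgeR adjusted p = 0.000429), and Fabp5 had 699, 1024 and 682 CPM in CLL and 393, 169 and 383 CPM in SHAM (1.39 ± 0.25, adjusted p = 0.00769). In cluster 14, led by Clec3b, Abca8a and Dlk1, 0 of 6 tested genes passed (1.56% called), with Cd9 at 208, 467 and 234 CPM in CLL and 373, 305 and 277 CPM in SHAM (-0.03 ± 0.23). In cluster 5, 0 of 4 tested genes passed (0.364% called). Cluster 22, led by the tendon genes Kera, Chad and Angptl7 and also by Tnmd, held 26, 50 and 46 cells in CLL and 137, 39 and 20 in SHAM. Spp1 was high there in 1 library of each group, at 2147, 273 and 716 CPM in CLL and 358, 2025 and 468 CPM in SHAM (0.16 ± 0.64, adjusted p = 0.925). The library high in SHAM was replicate 2, the same that was high for Spp1 in the whole class. In cluster 22, 0 of 6 tested genes passed (1.91% called). The Cd9 libraries did not overlap there, with 608, 547 and 693 CPM in CLL and 777, 721 and 914 CPM in SHAM, where 23.4% of genes did not (-0.34 ± 0.19, adjusted p = 0.352).

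The CLL effect in fibroblast/tenocyte-like cells differed from that in macrophage/monocyte-like cells by -1.54 ± 0.21 on the log2 scale for Cd9 (edgeR interaction, adjusted p = 0.0166), -1.79 ± 0.37 for Gpnmb (adjusted p = 0.0465) and -2.20 ± 0.46 for Syngr1 (adjusted p = 0.0483), where 2.45% of genes passed. For Cd9 the call was lost without CLL replicate 1, CLL replicate 3 or SHAM replicate 3, and for Gpnmb and Syngr1 also without SHAM replicate 1. The Fabp5 difference was 2.18 ± 0.53 and did not pass (adjusted p = 0.0669).

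**Figure D5:**
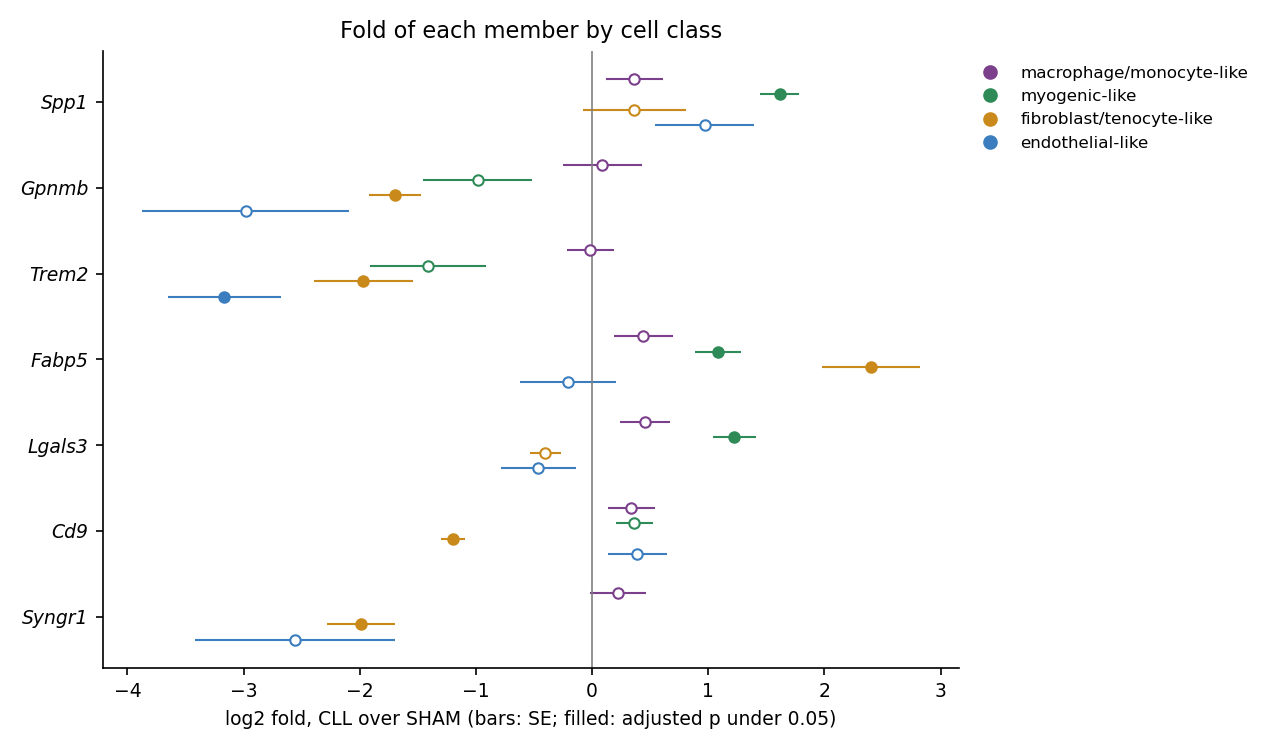
Points give the log2 fold of each gene, CLL over SHAM, in 4 cell classes with the standard error as a bar; filled points have an adjusted p under 0.05. Filled points occur for Spp1, Fabp5 and Lgals3 in myogenic-like cells, for 5 genes in fibroblast/tenocyte-like cells, for Trem2 in endothelial-like cells, and for none in macrophage/monocyte-like cells.

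In endothelial-like cells 0.515% of 9312 genes tested passed, 0.397% lower, and Trem2 was the member among them. It passed the filter on low counts through the SHAM libraries, where it was high, so its values are a description. Trem2 had 5.19, 7.18 and 3.34 CPM in CLL (39, 203 and 57 cells) and 43.2, 61.7 and 62.5 CPM in SHAM (2494, 283 and 183 cells), a log2 fold of -3.17 ± 0.49 (edgeR adjusted p = 0.00766; 0.0672 without CLL replicate 3, where the value was -2.92). The CLL values rest on 1, 3 and 1 UMIs, against 359, 148 and 166 UMIs in SHAM. The 6 macrophage markers summed to 171 to 317 CPM in CLL and 1073 to 1864 CPM in SHAM in the same cells. Without SHAM replicate 3 the value was -3.08 (adjusted p = 0.0205). The other 6 genes did not pass, with log2 folds from -2.98 for Gpnmb to 0.97 for Spp1. In dendritic-like cells 0 of 6 tested genes passed (1.35% called), and Fabp5, at 757, 1750 and 1632 CPM in CLL and 749, 396 and 957 CPM in SHAM, had a log2 fold of 1.03 ± 0.33 (adjusted p = 0.165). Trem2 went the other way there, at -2.09 ± 0.65 (adjusted p = 0.144), and of the 6 folds 4 were positive and 2 negative.

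Summed over all kept cells, 0 of the 7 genes rose and 3 fell, where 36.6% of 16687 genes tested passed, 17.6% higher and 19% lower: Trem2 (log2 fold -1.50 ± 0.32, edgeR adjusted p = 0.00778), Cd9 (-0.69 ± 0.13, adjusted p = 0.0045) and Syngr1 (-1.25 ± 0.36, adjusted p = 0.0273). Gpnmb (-1.34 ± 0.50, adjusted p = 0.0681) and Lgals3 (-0.77 ± 0.26, adjusted p = 0.0503) had an unadjusted p under 0.05, as 46.7% of all genes did, but did not pass after adjustment. Spp1 (-0.27 ± 0.27) and Fabp5 (-0.01 ± 0.20) had the values nearest 0. Fewer cells of a type and less RNA per cell cannot be told apart in such sums. The macrophage/monocyte-like share of kept cells was 17.98%, 4.99% and 18.2% across CLL libraries and 30.1%, 23.5% and 6.93% across SHAM libraries. Without SHAM replicate 3 the Cd9 fold was -0.75 (adjusted p = 0.0103), the Trem2 fold was -1.39 (adjusted p = 0.029) and the Syngr1 fold was -1.08 (adjusted p = 0.0856).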

How the data were processed

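Quadriceps cells of 3 CLL and 3 SHAM mice were captured with the 10x Chromium 3′ kit, per the labels' protocols. The deposited values are raw counts of unique molecular identifiers (UMIs) in each gene and barcode, made with Cell Ranger 6.1.2 on build mm10, per the submitters' processing notes. Libraries held 23873416 to 94841003 UMIs. Errors of log2 folds come from the fitted model, whose estimate of the spread between libraries draws on other genes too. Errors marked SD are of the spread between libraries. How barcodes were selected before deposit is not stated in the sources used here.

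Barcodes had to hold 300 genes or more, with mitochondrial UMIs at 15% or less, and 7032 were removed as doublets by Scrublet score, 0.8% per 1000 barcodes (1.66% to 20.02% of a library). Cells were clustered jointly (scanpy 1.11.5, Leiden, 2000 variable genes, 30 components, 15 neighbours, resolution 1, no batch integration). A cluster took a name from a marker list with at least 3 markers in at least 10% of its cells, a mean log2 fold of at least 0.5, 100 cells, a lead of 0.25 over the next list and no strong markers of another lineage. The exact form of that rule was set after clusters were seen. Subsets of macrophage/monocyte-like cells were also drawn at resolution 0.5 with the 7 genes withheld.

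UMIs were summed per library and class and tested with edgeR 4.0.16 (R 4.3.3; quasi-likelihood test, TMM, filterByExpr, Benjamini-Hochberg over all genes tested, threshold 0.05) where every library held at least 20 cells, so n = 3 each. Interactions had the library as a block. The test was checked on simulated data. Shares of cells were compared after thinning each cell to 1000 UMIs. Alternatives were DESeq2 1.42.0, no filter, the replicate block, thinning, stricter doublet and mitochondrial limits, other class borders and leaving out each library. Promoters came from RefSeq tables.

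The members and lists were chosen with earlier results of these data known. Besides the 7 genes, the text names up to 6 genes with the smallest p in macrophage/monocyte-like cells of each of 4 lists (TREM2 partners and lipid handling, osteopontin receptors, transcription factors, family relatives) and the 3 genes likest to each member. Other named genes were chosen after their values were seen.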

Additional observations from a re-analysis of the deposited data

Results flagged for a closer look

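The CLL effect on Spp1 and Lgals3 differed between myogenic-like and macrophage/monocyte-like cells by a test of the difference itself. The difference of log2 folds, myogenic-like minus macrophage/monocyte-like, was 1.27 for Spp1 and 0.85 for Lgals3 (edgeR interaction, adjusted p = 0.00506 and 0.0186). Spp1 in myogenic cells was named when the genes were chosen, so its p is not independent support. The Lgals3 call was lost when a single CLL library was left out. The same fit gave -2.15 for Syngr1 (adjusted p = 0.0383), which was too low to be tested in myogenic-like cells and entered through its macrophage sums, so no difference is read from it.

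Between fibroblast/tenocyte-like and macrophage/monocyte-like cells the same test gave differences of -1.54 for Cd9, -1.79 for Gpnmb and -2.20 for Syngr1 (edgeR adjusted p = 0.0166, 0.0465 and 0.0483). Each call was lost without some single libraries, with adjusted p up to 0.093, 0.176 and 0.181. Gpnmb and Syngr1 were low in fibroblast/tenocyte-like cells, and the part of macrophage RNA was not tested. Between macrophage clusters 3 and 7 it gave 1.04 for Gpnmb (edgeR adjusted p = 0.0208). Gpnmb was among the genes used to form these clusters. With the 7 genes withheld from clustering, the value was 0.58 (adjusted p = 0.788), so no difference is read from it.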

How the results depend on the processing

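Spp1 in myogenic-like cells kept its direction and its call in all 14 alternatives, from 1.17 with cluster 8 added to 2.17 with cells thinned. In macrophage/monocyte-like cells no alternative called any of the 7 genes, but directions turned: thinned Gpnmb was -0.0046, and leaving out a library gave -0.23 to 0.40 for Gpnmb, -0.23 to 0.17 for Trem2 and -0.024 to 0.48 for Syngr1. The share difference of Spp1 (CLL minus SHAM, percentage points) was 1.22 at 2000 UMIs and that of Syngr1 -0.484. Leaving out a library gave -5.76 to 3.12 for Spp1, -8.79 to 2.55 for Trem2, -6.33 to 1.68 for Fabp5, -5.53 to 1.59 for Lgals3 and -0.409 to 6.40 for Syngr1.

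Genes called in macrophage/monocyte-like cells were 424, or 1244 with no filter, 153 thinned, 168 with cluster 13 added and 39 to 660 without a library (39 without CLL replicate 1, 49 without CLL replicate 3, 157 without SHAM replicate 3). In myogenic-like cells they were 1558, or 325 thinned, 850 with cluster 8 added and 632 to 1457 without a library. Trem2 with cluster 8 added was 0.081. Members called in endothelial-like cells were 1, or 2 with no filter, 2 with the replicate block and 0 to 1 without a library. In dendritic-like cells they were 0, or 3 with no filter and 0 to 2 without a library. In myofibre-like cells they were 0, or 1 by DESeq2 and 3 with no filter. Over all kept cells they were 3, or 5 with no filter, 5 with the replicate block and 2 to 5 without a library. How many of all genes passed under these alternatives was not counted outside macrophage/monocyte-like and myogenic-like cells. These counts of members are therefore a description.

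Without a library, interaction values ranged from 0.70 to 0.97 for Lgals3 and -3.35 to -1.65 for Syngr1 (myogenic-like), -1.76 to -1.38 for Cd9, -2.24 to -1.44 for Gpnmb and -2.81 to -1.86 for Syngr1 (fibroblast/tenocyte-like), and 0.82 to 1.43 for Gpnmb between clusters 3 and 7, which was 0.58 with the genes withheld. Log2 folds that did not pass also turned without a library. Spp1 ranged from -0.0024 to 1.27 in fibroblast/tenocyte-like, -0.046 to 1.42 in endothelial-like, -0.19 to 1.35 in dendritic-like and -0.45 to 0.45 in myofibre-like cells. Fabp5 ranged from -0.83 to 0.19 in endothelial-like and -0.17 to 1.35 in myofibre-like cells and -0.23 to 0.11 over all kept cells. Gpnmb in dendritic-like cells ranged from -2.69 to 0.17, Lgals3 from -0.051 to 0.32 there and -0.70 to 0.23 in myofibre-like cells, and Cd9 from -0.023 to 0.45 in myofibre-like cells. Fabp5 over all kept cells was 0.0042 by DESeq2, 0.0018 with no filter and 0.024 with the block, and Spp1 in myofibre-like cells was 0.10 with the block. The causes were not tested.

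Replicate numbers did not pair the mice: deviations of same-numbered libraries correlated at -0.13, -0.06 and 0.09. With the replicate block, 306 genes in macrophage/monocyte-like and 1376 in myogenic-like cells were called, Spp1 in myogenic-like cells was at 1.62, and Trem2 in fibroblast/tenocyte-like cells had an adjusted p of 0.0511. Leaving out cells with fibroblast markers was not run, since it left 6 to 113 macrophage/monocyte-like cells a library. Few cells limit SHAM replicates 2 and 3.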
